A study of Mus musculus with 13 samples.

Results

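The comparison described here is the last step of a postnatal series of mouse ventricle: tissue of postnatal day (PN) 90 set against tissue of PN28. It rests on 2 of the 13 sequencing libraries of the series, 1 library at each age, chosen by their labelled tissue and age. The PN90 library came from wild-type FvB mice of 90 days, which the labels call adult, and the PN28 library from wild-type FvB mice of 28 days. In both, the atria had been removed, and neither group carried a transgene or a treatment. The labels do not say how many animals a library holds, nor the sex or the hour of collection. The other libraries were 3 younger ventricles (E17, embryonic day 17, PN1 and PN10), 4 of isolated cardiomyocytes (PN67, PN30 and 2 neonatal) and 4 of cardiac fibroblasts (PN60, PN28 and 2 neonatal). The neonatal libraries were labelled PN1-2 and PN1 for cardiomyocytes and PN1-3 and PN1-2 for fibroblasts. The question of the step is which genes still differ after PN28 and which are already at their adult level.

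In the weeks after birth, mouse cardiomyocytes stop dividing, enlarge, exchange fetal for adult contractile proteins and turn from glucose to fatty acids as their main fuel. Over the same weeks the fibroblasts lay down a collagen network around the muscle cells, and the synthesis of new matrix then slows. PN28 lies near the end of this remodelling, and much of the maturation program has usually run its course by then.

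RNA of the ventricles was depleted of ribosomal RNA and made into libraries with ScriptSeq v2, while the isolated cells were sequenced with TruSeq, so levels are compared within each kind of library only. Values are FPKM, fragments scaled to transcript length and library size, summed over the transcripts of a gene and scaled to a common median. The tables list 18618 transcripts of at least 1 FPKM at PN90 and 18969 at PN28. Coverage divided by FPKM, a gauge of depth, was 19.5 at PN90 and 20.3 at PN28, and the median half-width of the deposited confidence interval of a transcript was 8.41% of its FPKM at PN90 and 8.21% at PN28. With 1 library per age there is no test, no p-value and no error between animals. A gene is called where the ages differed at least 2-fold on log2(FPKM + 1), its mean FPKM was at least 1 and the confidence bounds of the ages did not overlap. It is called stable where they differed by less than 0.32 on the log2 scale. The bounds play no part in that label, so the bounds of a stable gene may allow a larger difference. The bounds cover the estimate within a library, not the spread between mice. Heart muscle markers were abundant at both ages: Myl3, the ventricular essential light chain, had 5703 FPKM at PN90, against 5893 FPKM at PN28, and Tnni3, cardiac troponin I, had 10507 FPKM at PN90, against 9412 FPKM at PN28. The atrial markers Myl4, Myl7 and Sln were present too and were lower at PN90, as described below. The lymphocyte markers Cd3e and Cd79a were under 0.1 FPKM at both ages. Cd74, of antigen presentation and listed with them, had 20.5 FPKM at PN90, against 28.4 FPKM at PN28. Of 16 skeletal muscle markers, 5 reached a mean of 1 FPKM, and Tnni2 and Casq1 among these were called lower, as described below. The Y-linked Ddx3y had 70.6 FPKM at PN90, against 72.1 FPKM at PN28 and Xist had 0.0344 and 0.0428 FPKM, so Y-linked RNA was present and Xist was close to 0 at both ages.

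Of 11216 genes compared, 9224 were stable, which is 82.2%. Only 121 genes, or 1.08%, were called: 62 were higher at PN90 (0.553%) and 59 were lower (0.526%). The other 1871 were neither stable nor called. The median log2 difference over all genes was 0.00 and the median size of a difference was 0.15. The same rule called far more genes in the earlier steps, namely 4.18% of genes for PN1 over E17, 6.53% for PN10 over PN1 and 5.94% for PN28 over PN10, where 66.1%, 58.6% and 56.0% of genes were stable. These steps share libraries with each other, so the shares are set side by side only. Only the neonatal cells have more than 1 library per group in this series, and the libraries of each pair differ in their labelled age. Between the libraries of a pair the rule called 0.385% of genes in cardiomyocytes and 0.517% in fibroblasts, with 91.9% and 84.9% stable. The share of genes called between PN90 and PN28 was thus above both neonatal pairs, which are of another library kind. The split of the calls depended on the scaling: with mitochondrial genes removed and the sums of the other genes set equal, 52 were higher and 75 lower, so that 40.9% of calls were higher in place of 51.2%.

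**Figure D1:**
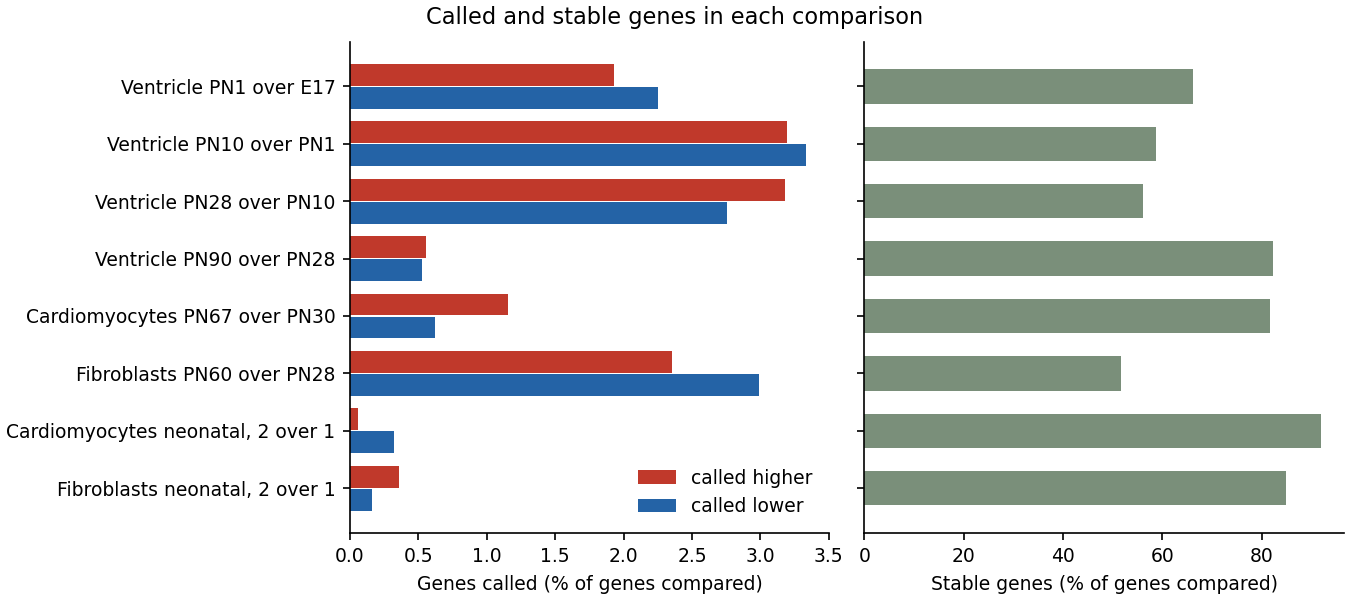
Share of genes called higher or lower (left, % of genes compared) and share of stable genes (right, %) in each of the 8 comparisons, with ventricle steps in order of age from top to bottom. The PN90 over PN28 step has 1.08% of genes called and 82.2% stable, the lowest and the highest share among the 4 ventricle steps.

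The 121 calls are not equally firm. A gene sum holds only transcripts that could be matched to the annotation and had status OK, and over the span of some genes a transcript left out carries most of the signal. A whole-locus sum added the gene's LOWDATA transcripts and the unmatched transcripts over its span, each of at least 200 nucleotides. Unmatched transcripts were taken by position on either strand, so some may belong to another gene. In this check, chosen after the data were seen, 50 of the 62 higher and 46 of the 59 lower genes were still called. The 25 others include Lpl, lipoprotein lipase, which releases fatty acids from circulating fat. Its matched transcripts had 15.2 FPKM at PN90, against 68.8 FPKM at PN28, but its whole locus had 1063 FPKM at PN90, against 991 FPKM at PN28. Aplp2, an amyloid precursor-like protein and the gene with the largest fall by the rule (log2 difference -3.21), had 199.98 FPKM at PN90, against 205 FPKM at PN28, over its whole locus. Gm28037, Magohb, Bag1, Apba3, Zcchc17, Ifi30 and Mad2l1bp, among the 12 largest rises or falls by the rule, were likewise not called over the whole locus, and no gene-level result below rests on these genes. The contractile genes Myh6, Myl2, Ttn and Tpm1, the calcium genes Atp2a2 and Pln, and several mitochondrially encoded genes had transcripts that the software could not quantify and are not analysed here, nor is Acta1.

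**Figure D2:**
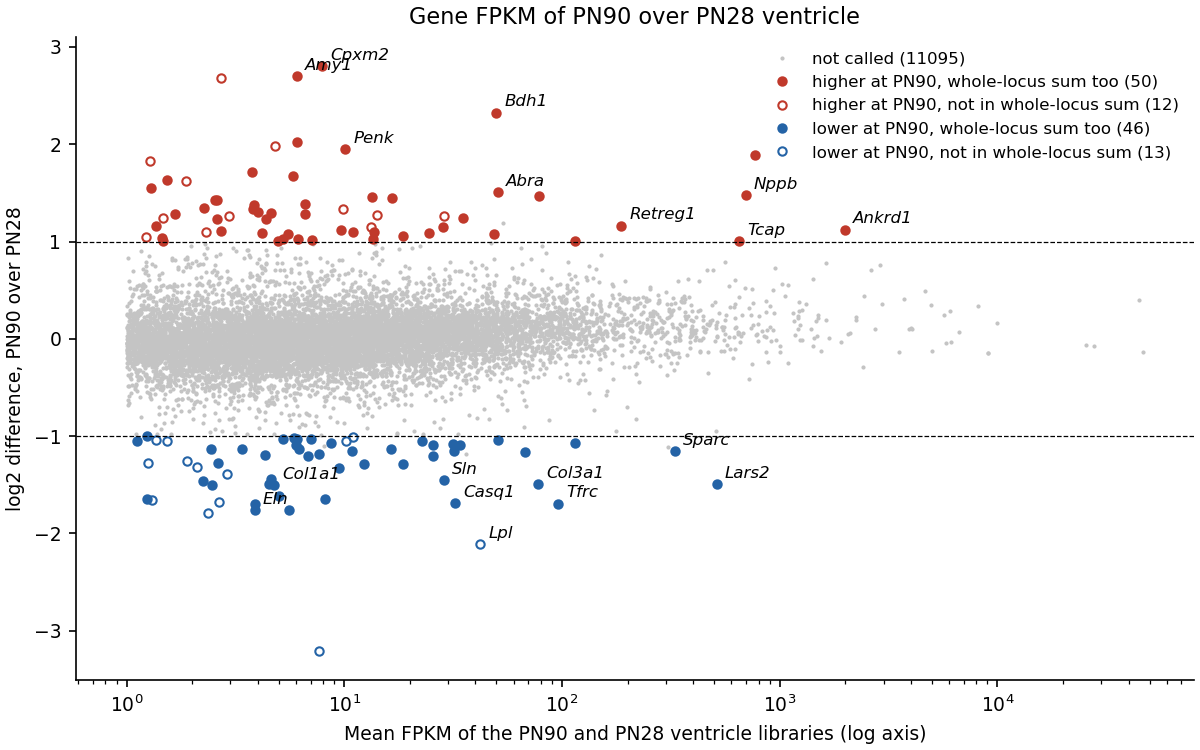
log2 difference of PN90 over PN28 for the 11216 genes compared, against their mean FPKM (log axis). Filled points were called and stayed called over the whole locus (50 higher, 46 lower), open points did not (12 and 13), and the dashed lines mark 2-fold.

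Many genes of the extracellular matrix were lower at PN90. Of 46 collagen and matrix genes compared, 16 fell at PN90, none rose, 14 were lower without reaching the call and 16 were stable. The median log2 difference of the list was -0.61, beside 0.00 over all genes, and the background of genes called lower was 0.526%. Over the whole locus, 15 of the 16 were still called, Loxl2 being the exception. This list was known to move from earlier work on these data, so its direction is described and not independently supported here.

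The fibrillar collagens, which give tissue its tensile strength, were among the larger falls. Col1a1, the main chain of type I collagen (chr11:94797538-94814356 in mm9, the build of the deposited tables), had 1.98 FPKM at PN90, against 7.48 FPKM at PN28 (log2 difference -1.51, -1.87 to -1.13 from the bounds). Across the series it had 28.1 FPKM at E17, 22.5 at PN1, 32.7 at PN10, 7.48 at PN28 and 1.98 at PN90, so the fall began after PN10 and the PN90 level was the lowest of the 5 libraries. Its partner Col1a2 had 77.1 FPKM at E17, 62.7 at PN1, 84.3 at PN10, 36.1 at PN28 and 15.1 at PN90. Col3a1, the chain of type III collagen, had 183 FPKM at E17, 221 at PN1, 301 at PN10, 115 at PN28 and 40.2 at PN90 (log2 difference -1.496, -1.55 to -1.44 from the bounds). All 3 collagens were thus highest at PN10 and lowest at PN90. Col5a1 and Col5a2, which join type I fibrils, had 3.56 and 8.21 FPKM and 4.27 and 11.0 FPKM at PN90 and PN28, and Col14a1, found on fibril surfaces, had 4.27 and 9.80 FPKM.

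Of proteins found in elastic fibers, Eln, Fbn1 and Mfap4 were called lower, while Efemp1, a fibulin outside the list, was called higher. Eln encodes elastin, the rubber-like protein of arteries, and had 38.4 FPKM at E17, 21.8 at PN1, 28.9 at PN10, 6.53 at PN28 and 1.22 at PN90, the largest fall of the list (log2 difference -1.76, -1.90 to -1.48 from the bounds). Fbn1, the fibrillin on which elastin is assembled, had 10.4 FPKM at PN90, against 26.9 FPKM at PN28 (log2 difference -1.29, -1.33 to -1.245 from the bounds), and Mfap4, a microfibril protein, had 3.52 FPKM at PN90, against 8.91 FPKM at PN28. Of basement membrane genes, Col4a1 and Col4a2, the 2 main chains of its type IV collagen network, were called lower, at 41.1 and 93.4 FPKM and 74.1 and 156 FPKM at PN90 and PN28. Sparc, a collagen-binding protein and the most abundant member that fell, had 204 FPKM at PN90, against 456 FPKM at PN28 (log2 difference -1.16, -1.21 to -1.10 from the bounds). The type VI collagens Col6a1, Col6a2 and Col6a3 fell by 1.09, 1.05 and 1.03 on the log2 scale. Of the laminins and nidogens of the basement membrane none was called, with Nid1 at 33.0 and 59.4 FPKM and Lamc1 at 51.9 and 84.3 FPKM, and Lama5 and Lamb2 were stable at 11.6 and 10.1 FPKM and 57.5 and 58.4 FPKM.

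Not all matrix genes moved. The small proteoglycans that regulate fibril growth were stable at high levels: Dcn (decorin) had 528 FPKM at PN90, against 577 FPKM at PN28, Lum (lumican) had 70.7 FPKM at PN90, against 75.4 FPKM at PN28 and Bgn (biglycan) had 54.5 FPKM at PN90, against 59.6 FPKM at PN28. Enzymes that cut or process matrix were not called: of 19 genes, 11 were stable and 7 were lower without reaching the call, with Mmp2, a gelatinase, at 15.2 and 30.9 FPKM at PN90 and PN28 (log2 difference -0.98). Adamts12 and Adamts15, metalloproteases outside that list, were called lower at 0.725 and 3.75 FPKM and 1.16 and 3.72 FPKM.

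Fibroblast markers that are not matrix genes did not pass the call. Of 13 fibroblast markers compared, 4 were called lower, against 0.526% of all genes, and these were the matrix genes Col1a1, Col3a1, Col1a2 and Mfap4 again. Tcf21, a transcription factor of cardiac fibroblasts, had 9.02 FPKM at PN90, against 10.2 FPKM at PN28, and the collagen receptor Ddr2 had 10.8 FPKM at PN90, against 11.6 FPKM at PN28, both stable. Pdgfra, a growth factor receptor of fibroblasts, had 19.9 FPKM at PN90, against 25.4 FPKM at PN28 (log2 difference -0.34). The sum of the fibroblast list was 1122 FPKM at PN90 and 1361 FPKM at PN28. In RNA of whole tissue, fewer cells of a type and less RNA per cell cannot be told apart. Matrix transcripts were also long, with a median of 4469 nucleotides against 2298 over all genes, and long transcripts were slightly lower at PN90 as a whole: the median log2 difference was -0.05 for 4000 to 8000 nucleotides and -0.11 above that. The part of length in the falls was not tested.

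Leukocyte markers were slightly lower as a list, and most endothelial markers were stable. Of 17 macrophage and leukocyte markers, 1 fell, 8 were lower without reaching the call and 6 were stable, with a median log2 difference of -0.38. The call of 1 in 17 stands beside 0.526% of all genes, and the stable share of 35.3% beside 82.2%. Their summed level was 165 FPKM at PN90 and 218 FPKM at PN28. Cx3cr1, the fractalkine receptor of resident macrophages, had 2.01 FPKM at PN90, against 7.16 FPKM at PN28 (log2 difference -1.44, -1.57 to -1.24 from the bounds). The macrophage growth factor receptor Csf1r had 6.93 FPKM at PN90, against 11.0 FPKM at PN28 and lysozyme, Lyz2, had 84.4 FPKM at PN90, against 111 FPKM at PN28, while Lyve1 and Cd163 of resident macrophages had 9.82 and 7.50 FPKM and 3.44 and 3.09 FPKM. Mgl2, Clec7a and Clec12a, lectins of myeloid cells outside the list, were called lower at 4.94 and 13.9 FPKM, 0.815 and 4.13 FPKM and 1.75 and 5.03 FPKM at PN90 and PN28. Of 20 endothelial markers, 15 were stable (75%, beside 82.2% of all genes), 5 were lower without reaching the call and none was called. Kdr, a receptor of vascular growth factor, had 61.7 and 61.0 FPKM and Cdh5, a junction protein, had 30.4 and 42.1 FPKM. The 14 markers of smooth muscle and pericytes held no call, although 3 contractile ones were higher without reaching the call, with Myh11 at 6.65 and 3.20 FPKM. Of 3 epicardial markers compared, all were stable, and the defining ones Upk3b and Msln had 0.344 and 0.0499 FPKM and 0.0826 and 0.0407 FPKM.

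**Figure D3:**
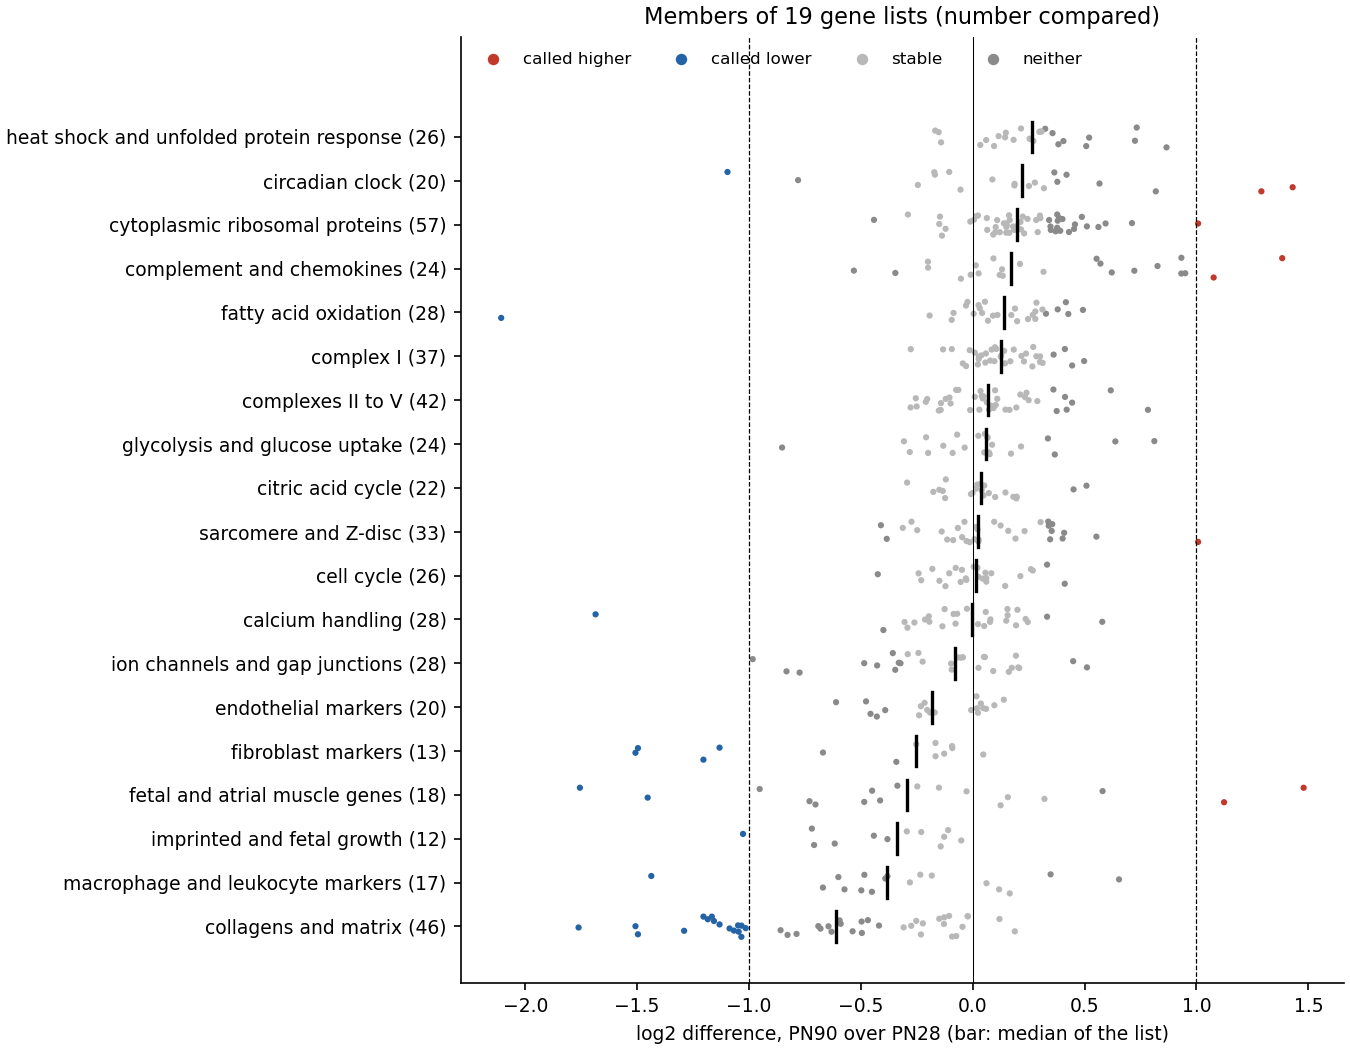
log2 difference of PN90 over PN28 for the members of 19 gene lists, sorted by their median (bar), with called members in red or blue. The collagen and matrix list has the lowest median, -0.61, and 16 of its 46 members called lower.

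Several genes known to respond to load or stretch, or to sit at the Z-disc, were called higher. These 6 were picked from the calls and do not form a list. Nppb, which encodes the natriuretic peptide BNP released by stretched cardiomyocytes (chr4:147359897-147361314), had 218 FPKM at E17, 53.5 at PN1, 121 at PN10, 367 at PN28 and 1026 at PN90 (log2 difference 1.48, 1.04 to 1.92 from the bounds), so PN90 was the highest of the 5 libraries. Ankrd1, a stretch-responsive protein of the sarcomere, had 639 FPKM at E17, 172 at PN1, 501 at PN10, 1254 at PN28 and 2732 at PN90 (log2 difference 1.12, 0.95 to 1.30 from the bounds), again highest at PN90. Abra, an actin-binding activator of the serum response factor pathway, had 75.6 FPKM at PN90, against 26.0 FPKM at PN28 (log2 difference 1.51, 1.31 to 1.71 from the bounds). Ccn2, connective tissue growth factor, had 33.9 FPKM at PN90, against 15.4 FPKM at PN28 (log2 difference 1.09, 0.98 to 1.21 from the bounds). Tcap, the titin cap of the Z-disc, had 37.8 FPKM at E17, 94.7 at PN1, 236 at PN10, 433 at PN28 and 871 at PN90 (log2 difference 1.01, 0.66 to 1.36 from the bounds) and reached the 2-fold limit by a narrow margin. Myot, the Z-disc protein myotilin, had 0.228 FPKM at E17, 0.895 at PN1, 1.68 at PN10, 20.5 at PN28 and 49.8 at PN90 (log2 difference 1.24, 1.10 to 1.40 from the bounds). All 6 were higher at PN90 than in any younger ventricle library. In isolated cardiomyocytes only Myot of the 6 was called higher, at 37.8 FPKM at PN67, against 14.6 FPKM at PN30. Tcap was just short of the call there (log2 difference 0.998). Ccn2, Abra and Ankrd1 were higher at PN67 without reaching it (log2 differences 0.71, 0.67 and 0.64). Nppb alone was lower, at 302 FPKM at PN67, against 439 FPKM at PN30 (log2 difference -0.54).

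The list of fetal and atrial muscle genes was split. Of 18 compared, 2 were called higher, the Nppb and Ankrd1 just described, and 2 lower, Sln and Tnni2, against 0.553% and 0.526% of all genes. The stable share was 33.3%, beside 82.2% of all genes, and the median log2 difference was -0.29. Nppa, the atrial natriuretic peptide, had 570.4 FPKM at E17, 158 at PN1, 40.1 at PN10, 247 at PN28 and 151 at PN90, and its log2 difference of -0.70 did not reach the call. Nppb and Nppa thus differed in opposite directions. Sln, sarcolipin, a small inhibitor of the calcium pump that is typical of atria, had 73.1 FPKM at E17, 28.3 at PN1, 5.83 at PN10, 42.4 at PN28 and 14.9 at PN90 (log2 difference -1.45, -2.21 to -0.70 from the bounds). The atrial light chains Myl4 and Myl7 had 120.4 and 234 FPKM and 41.7 and 69.7 FPKM at PN90 and PN28, with log2 differences of -0.95 and -0.73. All 3 markers used to look for atrial muscle (Myl4, Myl7 and Sln) were therefore lower at PN90, and their part in the other falls was not tested. Tnni2, the fast skeletal troponin I, had 2.00 FPKM at PN90, against 9.13 FPKM at PN28 (log2 difference -1.76, -2.33 to -1.21 from the bounds), and Casq1, the skeletal form of the calcium store protein calsequestrin, had 14.8 FPKM at PN90, against 49.8 FPKM at PN28 (log2 difference -1.69, -2.11 to -1.29 from the bounds). Of 10 other skeletal muscle markers, all with a mean under 1 FPKM, 6 were lower at PN90, among them Mylpf at 0.560 and 0.827 FPKM, Tnnt3 at 0.330 and 0.566 FPKM, Tnnc2 at 0.148 and 0.292 FPKM and Mybpc1 at 0.0963 and 0.570 FPKM. The skeletal myosins Myh1, Myh2 and Myh4 were under 0.1 FPKM at both ages, and Ckm and Eno3, which heart muscle also uses, were stable. The part of skeletal muscle RNA in the falls of Tnni2 and Casq1 was not tested. Myh7, the fetal myosin heavy chain, was stable at 942 FPKM at PN90, against 864 FPKM at PN28, as was the cardiac actin Actc1 at 6058 FPKM at PN90, against 6176 FPKM at PN28. Myh7 had 685 FPKM at PN10 and no usable value at E17 or PN1, so its fetal level is not known here.

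**Figure D4:**
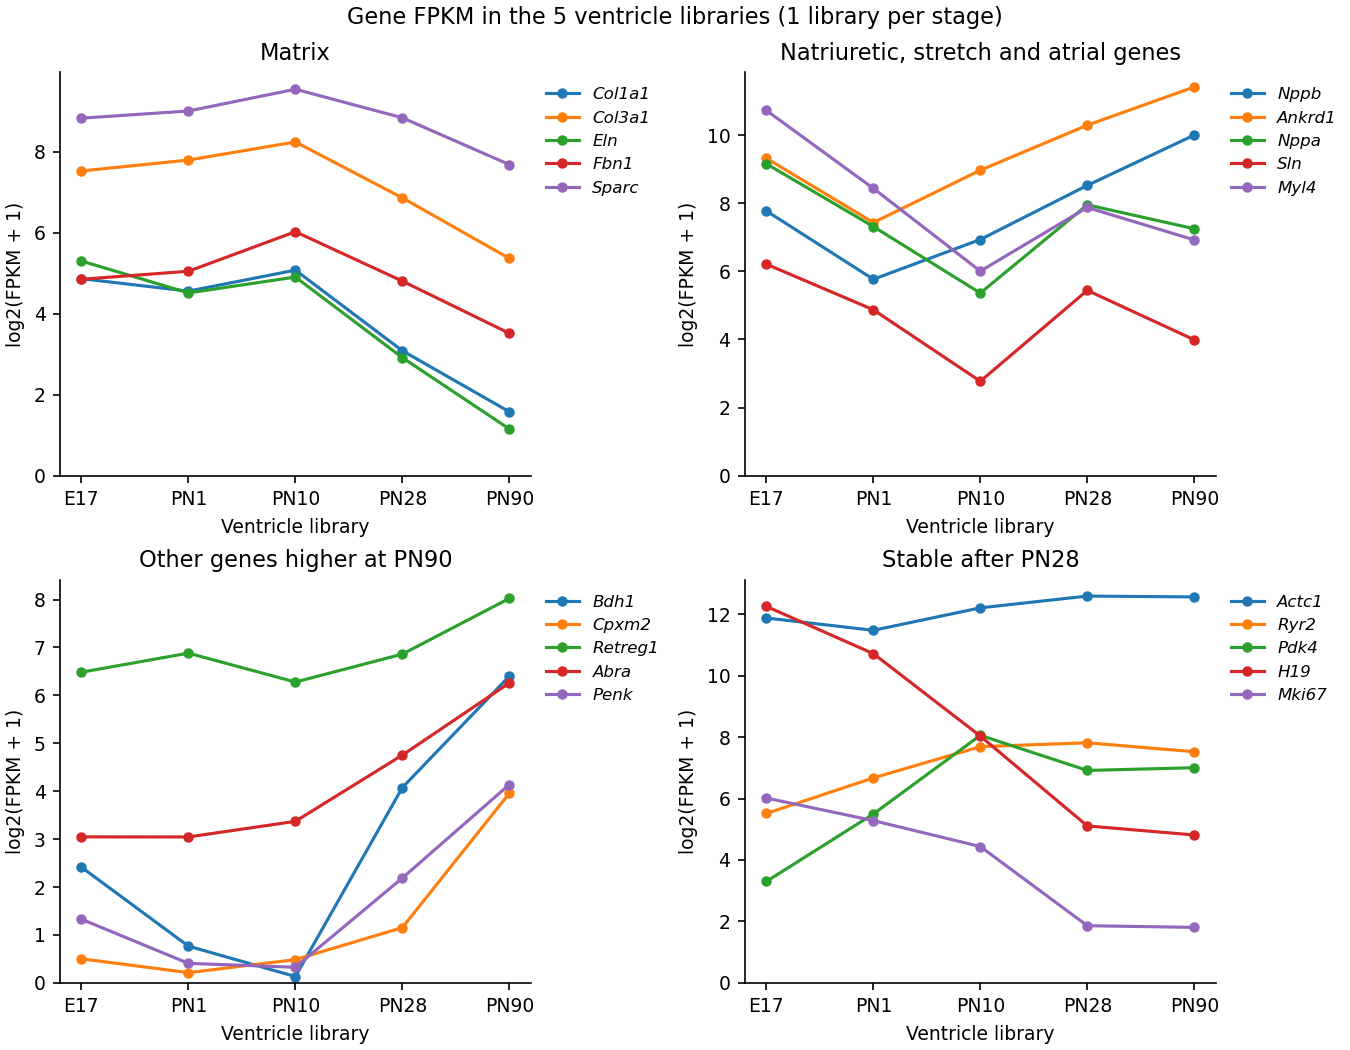
log2(FPKM + 1) of 20 genes in the 5 ventricle libraries in order of age, 1 library per point. All 5 matrix genes are lowest at PN90 and 4 of them peak at PN10, Nppb and Ankrd1 are highest at PN90, and the lower right panel shows genes that were stable after PN28.

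Few genes of the contractile and calcium machinery were called, but the stable share was below that of all genes for the sarcomere and above it for calcium handling. Of 33 sarcomere and Z-disc genes, 22 were stable (66.7%, beside 82.2% of all genes), 1 was called (Tcap) and the median log2 difference was 0.03. Tnnt2, cardiac troponin T, had 9089.8 FPKM at PN90, against 7194 FPKM at PN28 (log2 difference 0.34), just outside the stable band. Of 28 calcium-handling genes, 24 (85.7%) were stable and only Casq1 was called. The release channel Ryr2 had 183 FPKM at PN90, against 224 FPKM at PN28, the cardiac calsequestrin Casq2 had 956 FPKM at PN90, against 1049.9 FPKM at PN28, and the L-type channel Cacna1c had 36.1 FPKM at PN90, against 32.3 FPKM at PN28. Triadin, Trdn, which holds calsequestrin at the release channel, had 79.3 FPKM at PN90, against 52.8 FPKM at PN28 (log2 difference 0.58).

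Ion channels held no call. Of 28 compared, 17 (60.7%, beside 82.2% of all genes) were stable, among them the gap junction gene Gja1 (259 and 254 FPKM at PN90 and PN28) and the inward rectifier Kcnj2 (37.0 and 32.0 FPKM). The lowest differences were those of Kcna5, an ultrarapid potassium channel, at 4.95 and 10.8 FPKM (log2 difference -0.98) and of the pacemaker channel Hcn2 at 2.84 and 5.83 FPKM (log2 difference -0.83). Of 22 adrenergic and muscarinic genes, 17 were stable (77.3%) and none was called, with the beta receptor Adrb1 at 5.37 and 5.82 FPKM. Heart transcription factors were stable in 24 of 32 cases (75.0%), including Gata4 at 27.4 and 24.2 FPKM and Mef2a at 64.1 and 71.5 FPKM. Nkx2-5, a core cardiac factor, had 7.67 FPKM at PN90, against 10.1 FPKM at PN28 (log2 difference -0.36). Vesicle trafficking genes, which help to build the membrane system of the adult cell, were stable in 40 of 50 cases (80%) with no call.

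Most genes of the energy metabolism lists were stable, as were 82.2% of all genes. The stable share was 89.2% for complex I, 83.3% for complexes II to V and 78.6% for fatty acid oxidation. It was 90.9% for the citric acid cycle and 79.2% for glycolysis. Of 37 complex I genes of the respiratory chain, 33 were stable and 4 were higher without reaching the call. The list's median log2 difference was 0.12. For complexes II to V, 35 of 42 were stable and 7 in that higher range, the highest being Atp5k of the ATP synthase at 2066 and 1200.3 FPKM at PN90 and PN28. Cox6c, among the 10 most abundant stable genes, had 6661 FPKM at PN90, against 5452 FPKM at PN28. Of 28 fatty acid oxidation genes, 22 were stable, with Cpt2 at 154 and 153 FPKM and Acadvl at 568 and 534 FPKM. Lpl, the only one called, was not called over its whole locus. Fabp3, the fatty acid carrier of heart muscle, had 5447 FPKM at PN90, against 3871 FPKM at PN28 (log2 difference 0.49). In the citric acid cycle 20 of 22 genes were stable, and in glycolysis 19 of 24, including the glucose carrier Slc2a4 at 351 and 336 FPKM.

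Pdk4, Ucp3 and Angptl4, targets of the fatty acid sensor PPAR that mark a fasting or suckling state, were stable over the last step, although not over the earlier ones. Pdk4, which blocks the entry of pyruvate into mitochondria, had 8.86 FPKM at E17, 44.2 at PN1, 266 at PN10, 119.7 at PN28 and 127 at PN90. Ucp3, a mitochondrial carrier, had 0.0700 FPKM at E17, 20.4 at PN1, 39.3 at PN10, 12.9 at PN28 and 15.4 at PN90, and Angptl4, an inhibitor of lipoprotein lipase, had 1.24 FPKM at E17, 16.4 at PN1, 24.4 at PN10, 3.63 at PN28 and 3.52 at PN90. None of the 17 genes of this list was called in ventricle, where 70.6% were stable, beside 82.2% of all genes. In isolated cardiomyocytes 5 of 16 were called higher at PN67, against 1.08% of all genes. Pdk4 had 496 FPKM at PN67, against 133 FPKM at PN30, Ucp3 had 46.4 FPKM at PN67, against 16.9 FPKM at PN30 and Angptl4 had 24.9 FPKM at PN67, against 5.10 FPKM at PN30. The difference between tissue and cells was not tested.

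Bdh1, the mitochondrial enzyme that interconverts the 2 main ketone bodies, was called higher. It lies at chr16:31422366-31458987 and had 4.33 FPKM at E17, 0.700 at PN1, 0.0954 at PN10, 15.9 at PN28 and 83.5 at PN90 (log2 difference 2.33, 1.93 to 2.66 from the bounds), a rise at each of the 2 steps after PN10. In isolated cardiomyocytes it had 125 FPKM at PN67, against 20.5 FPKM at PN30, which passed the same rule. The next enzymes of ketone use were stable, with Oxct1 at 1481 FPKM at PN90, against 1617 FPKM at PN28, and Acat1 at 253 FPKM at PN90, against 239 FPKM at PN28. Among 16 genes of ketone and branched-chain amino acid use, Bdh1 alone was called and 13 were stable (81.2%, beside 82.2% of all genes).

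Among the other large rises, Cpxm2, a carboxypeptidase-like secreted protein (chr7:139234499-139346422), had 0.416 FPKM at E17, 0.159 at PN1, 0.399 at PN10, 1.22 at PN28 and 14.5 at PN90 (log2 difference 2.80, 2.49 to 2.99 from the bounds). Amy1, salivary amylase, had 11.2 FPKM at PN90, against 0.884 FPKM at PN28 (log2 difference 2.70, 2.24 to 2.99 from the bounds), and Penk, the precursor of enkephalins, had 16.6 FPKM at PN90, against 3.56 FPKM at PN28 (log2 difference 1.95, 1.502 to 2.34 from the bounds). Efemp1, a fibulin of the matrix, had 6.29 FPKM at PN90, against 1.22 FPKM at PN28. All 4 were under 5 FPKM in every ventricle library up to PN28. Tchhl1 had 2.42 FPKM at PN90, against 0.172 FPKM at PN28. At higher levels, Retreg1, a receptor for the breakdown of endoplasmic reticulum by autophagy, had 259 FPKM at PN90, against 115 FPKM at PN28 (log2 difference 1.16, 1.10 to 1.246 from the bounds), and Gabarapl1, a protein of the autophagosome membrane, had 66.6 FPKM at PN90, against 31.1 FPKM at PN28 (log2 difference 1.07, 0.98 to 1.17 from the bounds). Hsd11b1, which regenerates active glucocorticoid, had 0.595 FPKM at E17, 0.161 at PN1, 0.290 at PN10, 8.57 at PN28 and 18.6 at PN90 (log2 difference 1.03, 0.75 to 1.32 from the bounds). Cyp2b10 and Inmt, enzymes that modify foreign and small molecules, had 2.77 and 0.554 FPKM and 5.99 and 1.69 FPKM at PN90 and PN28. Of 7 adipocyte markers compared, 1 was called higher and 1 lower, against 0.553% and 0.526% of all genes. Car3, a carbonic anhydrase, was higher at 7.38 and 3.12 FPKM, and the lower one was Lpl, not called over its whole locus. Another 3 were stable, among them Fabp4 at 1618 and 1390 FPKM, and 2 were higher without reaching the call. The defining markers Adipoq and Plin1 had 2.39 and 1.03 FPKM and 0.485 and 0.272 FPKM.

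Cenpf, a centromere protein of dividing cells, had 30.9 FPKM at E17, 15.8 at PN1, 8.51 at PN10, 1.80 at PN28 and 10.4 at PN90 (log2 difference 2.02, 1.90 to 2.14 from the bounds). Of 52 cell cycle genes listed, 26 reached the mean of 1 FPKM needed for a comparison, and of these 23 were stable (88.5%, beside 82.2% of all genes) and none was called, with the division marker Mki67 at 2.50 and 2.63 FPKM at PN90 and PN28 and Top2a at 2.78 and 2.77 FPKM. In isolated cardiomyocytes Cenpf had 1.30 FPKM at PN67, against 1.32 FPKM at PN30.

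Hba-a2, an alpha globin gene, had 1218 FPKM at PN90, against 328 FPKM at PN28 (log2 difference 1.89), whereas its near-identical copy Hba-a1 had 307 FPKM at PN90, against 340.5 FPKM at PN28. The beta globins Hbb-bs and Hbb-bt were stable at 117 and 132 FPKM and 51.1 and 48.1 FPKM, and Alas2, of heme synthesis in red cells, had 9.27 and 13.4 FPKM. The 2 alpha globin copies summed to 1525 FPKM at PN90 and 669 FPKM at PN28. The division of fragments between near-identical copies is an estimate, so the value of each copy is uncertain.

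Among the other large falls, Tfrc, the transferrin receptor that carries iron into cells (chr16:32609006-32632880), had 43.5 FPKM at E17, 72.1 at PN1, 153 at PN10, 147 at PN28 and 44.8 at PN90 (log2 difference -1.69, -1.77 to -1.63 from the bounds). It had 23.8 FPKM at PN67, against 94.0 FPKM at PN30, in isolated cardiomyocytes, where it was called lower as well. Lrat, which esterifies retinol, had 0.0819 FPKM at PN90, against 2.39 FPKM at PN28 and was called lower in cardiomyocytes at 0.113 FPKM at PN67, against 2.52 FPKM at PN30. Frem2, a basement membrane adhesion protein, had 1.96 FPKM at PN90, against 8.07 FPKM at PN28 and Sntb1, a syntrophin of the muscle membrane, had 3.44 FPKM at PN90, against 12.9 FPKM at PN28. Ddit4, an inhibitor of the growth kinase mTOR, had 1.31 FPKM at PN90, against 6.50 FPKM at PN28 (log2 difference -1.70, -1.90 to -1.36 from the bounds). Lars2, the mitochondrial leucyl-tRNA synthetase, had 387 FPKM at E17, 197 at PN1, 678 at PN10, 758 at PN28 and 268 at PN90, and in cardiomyocytes it was stable at 78.6 FPKM at PN67, against 71.5 FPKM at PN30. Ndrg4, Cited4 and the DNA demethylase Tet1 were called lower at 21.4 and 46.5 FPKM, 5.27 and 12.2 FPKM and 2.23 and 6.40 FPKM at PN90 and PN28.

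Among imprinted and fetal growth genes, Igf2 was called lower. Igf2, a fetal growth factor expressed from the paternal copy, had 254 FPKM at E17, 122 at PN1, 49.1 at PN10, 8.46 at PN28 and 3.64 at PN90 (log2 difference -1.03, -1.24 to -0.76 from the bounds). H19, the noncoding RNA of the same imprinted locus, had 4890.1 FPKM at E17, 1683 at PN1, 261 at PN10, 33.5 at PN28 and 27.1 at PN90 and was stable over the last step. Of 12 imprinted and fetal growth genes compared, 1 was called, against 0.526% of all genes, 5 were lower without reaching the call, such as Grb10 at 32.9 and 54.7 FPKM and Peg3 at 3.67 and 6.16 FPKM, and 6 were stable. Decorin, Dcn, also in this list, had the opposite course before PN28, with 133 FPKM at E17, 188 at PN1, 434 at PN10, 577 at PN28 and 528 at PN90. In the growth hormone and IGF axis none of 17 genes was called. Igfbp3, a carrier of insulin-like growth factors, had 11.5 FPKM at PN90, against 23.5 FPKM at PN28 (log2 difference -0.96), and the growth hormone receptor Ghr had 86.5 FPKM at PN90, against 82.2 FPKM at PN28.

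Clock genes held 3 calls, in both directions. The clock runs on a loop in which ARNTL (BMAL1) and CLOCK switch on their own repressors through E-box sequences, and the output factor DBP acts through D-boxes. Ciart, a repressor in this loop, had 4.17 FPKM at PN90, against 0.918 FPKM at PN28 (log2 difference 1.43, 0.64 to 2.14 from the bounds), and Dbp had 6.99 FPKM at PN90, against 2.27 FPKM at PN28 (log2 difference 1.29, 0.99 to 1.52 from the bounds). Arntl had 3.46 FPKM at PN90, against 8.53 FPKM at PN28 (log2 difference -1.10, -1.26 to -0.95 from the bounds). The repressor Nr1d2 had 62.4 FPKM at PN90, against 35.0 FPKM at PN28 and Nfil3, which competes with DBP, had 4.29 FPKM at PN90, against 8.09 FPKM at PN28, with log2 differences of 0.82 and -0.78. Per1 and Nr1d1 were stable at 1.93 and 2.04 FPKM and 12.6 and 10.4 FPKM, and Per2 had 1.62 and 0.767 FPKM (log2 difference 0.57). Of 20 clock genes compared, 2 were higher, 1 lower and 11 stable (55.0%), beside 0.553%, 0.526% and 82.2% of all genes. In cardiomyocytes Ciart had 8.30 FPKM at PN67, against 1.51 FPKM at PN30, Dbp had 50.2 FPKM at PN67, against 23.1 FPKM at PN30 and Arntl had 1.01 FPKM at PN67, against 3.23 FPKM at PN30, all called in the same direction as in ventricle. In fibroblasts none of the 3 was called, with Ciart at 3.67 and 6.16 FPKM, Dbp at 4.38 and 2.70 FPKM and Arntl at 63.6 and 67.1 FPKM at PN60 and PN28. Per1, stable in ventricle, was called higher in cardiomyocytes (21.4 and 9.38 FPKM at PN67 and PN30) and in fibroblasts (23.1 and 10.1 FPKM at PN60 and PN28). The hour of collection is not given for any of these libraries, and its part in these differences was not tested.

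The promoters of the 3 called clock genes are shown because their regulators act through known short motifs. They are RefSeq windows of build GRCm38.p6, from 250 bases before to 50 bases after a transcription start, on the strand of the gene, with E-boxes (CACGTG) in capitals. D-boxes (TTATGTAA and TTACGTAA) were searched on both strands too, and none is in these 3 windows.
Ciart, chr3:95882179-95882478, minus strand: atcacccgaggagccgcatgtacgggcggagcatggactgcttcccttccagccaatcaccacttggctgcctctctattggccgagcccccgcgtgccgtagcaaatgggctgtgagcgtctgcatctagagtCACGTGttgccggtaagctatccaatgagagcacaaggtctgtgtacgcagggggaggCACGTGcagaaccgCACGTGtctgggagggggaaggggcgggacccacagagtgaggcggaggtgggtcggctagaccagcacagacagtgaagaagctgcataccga
Dbp, chr7:45704997-45705296, plus strand: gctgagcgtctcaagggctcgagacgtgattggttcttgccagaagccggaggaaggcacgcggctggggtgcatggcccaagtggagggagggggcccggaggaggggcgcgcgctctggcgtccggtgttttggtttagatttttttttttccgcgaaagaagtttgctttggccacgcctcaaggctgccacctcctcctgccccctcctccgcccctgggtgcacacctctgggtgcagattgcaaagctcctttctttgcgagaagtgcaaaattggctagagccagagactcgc
Arntl, chr7:113207215-113207514, plus strand: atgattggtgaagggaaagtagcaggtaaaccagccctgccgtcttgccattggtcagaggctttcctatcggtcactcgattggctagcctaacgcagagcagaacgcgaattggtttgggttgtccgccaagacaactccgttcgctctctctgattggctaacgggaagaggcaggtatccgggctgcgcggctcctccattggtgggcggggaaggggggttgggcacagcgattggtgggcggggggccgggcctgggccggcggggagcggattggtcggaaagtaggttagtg
The Ciart window holds 3 E-boxes, which start 116, 58 and 44 bases before the transcription start, and the windows of Dbp and Arntl hold none. An E-box is in 7.15% of all 32851 promoter windows of the table, TTATGTAA in 0.938% and TTACGTAA in 0.119%. Of 16 compared clock genes with a window, 5 hold an E-box in at least 1 of their windows (Ciart, Per1, Cry1, Tef and Bhlhe41), and 1 holds TTATGTAA (Per3). Some of these genes, such as Per1 and Tef, have more than 1 window, so this count per gene is not on the same footing as the shares of single windows. The match is a description of these letters only.

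Stress and inflammatory genes held few calls, and smaller shares of them were stable than the 82.2% of all genes, namely 65.4% of the heat shock, 52.0% of the immediate early and 12 of 24 in the complement and chemokine list. None of 26 heat shock and unfolded protein genes was called, but the 9 outside the stable band were all higher at PN90, among them the chaperones Hsp90aa1 at 196 and 107 FPKM and Hspa8 at 1193 and 717 FPKM at PN90 and PN28. Of 25 immediate early and stress genes, which respond within minutes to handling, 13 were stable, with Fos at 1.16 and 1.09 FPKM and Jun at 15.4 and 14.2 FPKM, 1 rose (Ccn2) and 1 fell (Gadd45g, 3.75 and 9.93 FPKM). In isolated cardiomyocytes 11 of the 25 were called higher at PN67, against 1.08% of all genes. Gsta3, a glutathione transferase, had 9.84 FPKM at PN90, against 4.38 FPKM at PN28, and its relatives Gstm1 and Gstm2 had 177 and 118 FPKM and 107 and 54.7 FPKM, with only Gsta3 called. In the complement and chemokine list 2 of 24 rose, against 0.553% of all genes: the eosinophil attractant Ccl11 at 10.0 FPKM at PN90, against 3.22 FPKM at PN28, and Cxcl14 at 7.81 FPKM at PN90, against 3.18 FPKM at PN28. Both were called higher in cardiomyocytes and in fibroblasts as well, with Ccl11 in fibroblasts at 37.1 FPKM at PN60, against 17.0 FPKM at PN28. C3, the central complement protein, had 29.8 FPKM at PN90, against 14.9 FPKM at PN28 (log2 difference 0.95). No interferon gene of 25 was called.

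Splicing regulators, which direct the isoform changes of heart maturation, were stable in 36 of 41 cases (87.8%, beside 82.2% of all genes) and none was called. Celf1, a splicing factor abundant in fetal heart, had 33.7 FPKM at PN90, against 28.9 FPKM at PN28, and Ptbp1, a repressor of muscle exons, had 6.19 FPKM at PN90, against 7.25 FPKM at PN28. Cytoplasmic ribosomal protein genes leaned upward: 37 of 57 were stable (64.9%), 18 were higher without reaching the call, Rps12 was called at 153 and 75.6 FPKM, and the median log2 difference was 0.20. Rpl3l, the striated muscle form, was stable at 62.2 FPKM at PN90, against 61.6 FPKM at PN28. Short transcripts as a class leaned the same way, with a median log2 difference of 0.08 for 500 to 1000 nucleotides and 0.13 for 200 to 500, and ribosomal proteins have a median of 679 nucleotides. Complex I genes had a median of 707 nucleotides. The part of length was not tested.

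The isolated cells give libraries that share none with the ventricle. Of the 62 genes higher at PN90, 51 had a value in cardiomyocytes, and 44 of these, 86.3%, were also higher at PN67 than at PN30, against 47.6% of all 10723 genes. Of these 51, 22 passed the same call, which is 43.1%, against 1.08% of all genes, and none was called in the opposite direction. Of the 59 genes lower at PN90, 52 had a value, 42 were also lower at PN67, and 27 passed the call, which is 51.9%, against 0.606% of all genes. Here 3 were called in the opposite direction, namely Ddit4, Sln and Renbp, and of these Renbp was not called over its whole locus in ventricle. In all, 1.77% of cardiomyocyte genes were called between PN67 and PN30. In fibroblasts 5.34% of all genes were called between PN60 and PN28, and 4 of 36 ventricle rises (11.1%, against 2.09% of all genes) and 1 of 42 ventricle falls (2.38%, against 2.29% of all genes) were called in the same direction.

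The matrix genes were set against the isolated cells in the same way. In the cardiomyocyte libraries 13 of 43 matrix genes were called lower at PN67, 2 were called higher (Thbs1 and Thbs2) and the median log2 difference was -0.50, with Col1a1 at 15.1 FPKM at PN67, against 39.2 FPKM at PN30 and Col3a1 at 55.8 FPKM at PN67, against 166 FPKM at PN30. Over all genes, 0.606% were called lower and 1.08% higher in the cardiomyocyte libraries. In fibroblasts 1 of 42 was called lower, 1 was called higher (Fmod), 25 were stable and the median was 0.06, with Col1a1 at 142 FPKM at PN60, against 118 FPKM at PN28 and Col3a1 at 308 FPKM at PN60, against 496 FPKM at PN28. Over all genes, 2.29% were called lower and 2.09% higher in fibroblasts. The gene called lower in fibroblasts was Eln, at 60.5 FPKM at PN60, against 122 FPKM at PN28. The cardiomyocyte libraries also hold RNA of fibroblast markers, whose sum was 2328 FPKM at PN67 and 1725 FPKM at PN30, with Dcn at 739 and 420.1 FPKM. Of the 13 markers, 3 were called lower there (Col1a1, Col3a1 and Mfap4), against 0.606% of all genes, and the median log2 difference was 0.10. The part of fibroblast RNA in the collagen values was not tested.

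**Figure D5:**
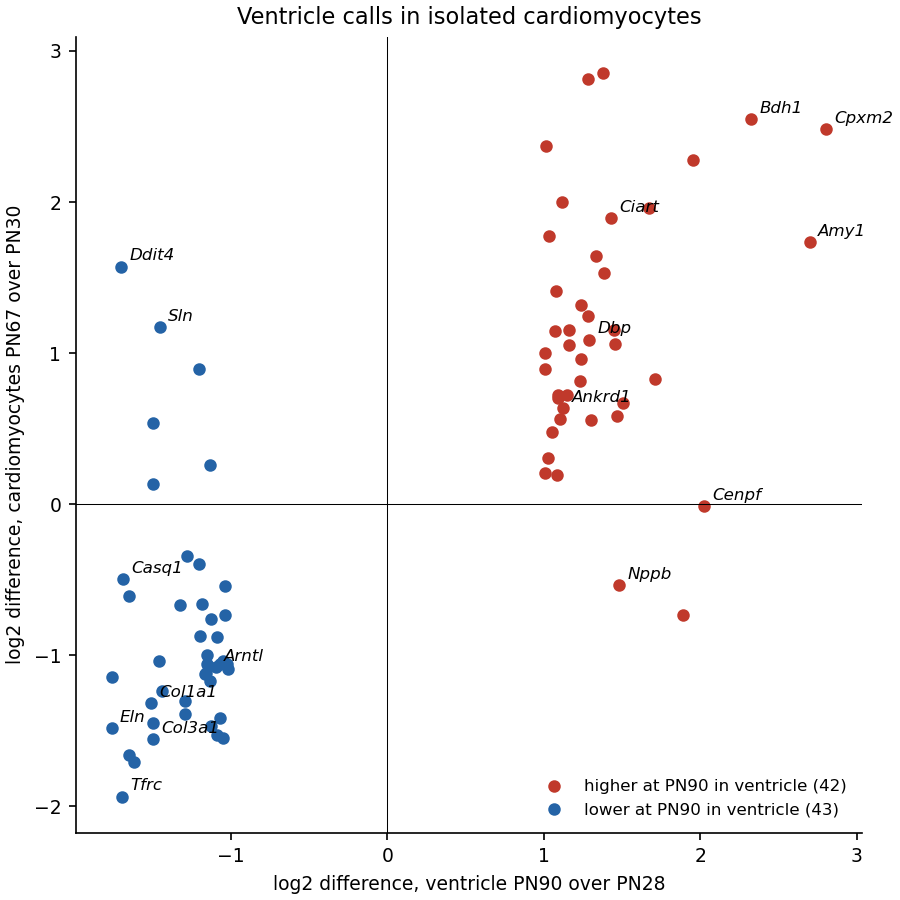
log2 difference of PN67 over PN30 cardiomyocytes against that of PN90 over PN28 ventricle, for the ventricle calls that held over the whole locus and have a cardiomyocyte value (42 higher in red, 43 lower in blue). Of these, 39 higher and 37 lower genes had the same direction in both, and Ddit4 and Sln lie in the opposite corner.

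Isoform shares differed as well. Among 23638 isoforms of 4266 genes, 651 isoforms of 422 genes differed by at least 10 percentage points of their gene's FPKM with bounds apart, which is 2.75%. Between the neonatal libraries of cardiomyocytes and of fibroblasts, which differ in labelled age within each pair, the shares were 0.574% and 1.06%. The largest differences lay in Lpl, Tpi1, Hsdl2, Pmvk and Cpped1, with 2 isoforms each. Lpl-203 made up 4.29% of the matched Lpl signal at PN90 and 82.3% at PN28, and Lpl-201 made up 82.7% and 15.2%. Tpi1-205, of a glycolytic enzyme, made up 57.0% at PN90 and 0.0300% at PN28, and Tpi1-203 made up 35.4% and 93.9%. Hsdl2-201 made up 51.4% at PN90 and 13.6% at PN28, with Hsdl2-202 as the remainder. Pmvk-202 made up 38.8% and 4.62%, Pmvk-201 the remainder, and Cpped1-202 made up 93.1% and 60.4% while Cpped1-203 made up 0.173% and 32.6%. Of these 5 genes, Lpl, Tpi1, Hsdl2 and Pmvk have unmatched transcripts over their span, so their shares are of a partial sum.

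The called isoforms were split about evenly in direction in cardiomyocytes. Of 574 called isoforms that were also compared between PN67 and PN30, 298 moved in the same direction, which is 51.9%. Only 11 passed the call in the same direction and 11 in the opposite one, among isoforms of which 0.897% passed it overall. The shares of a gene add up to a whole, so its isoforms mirror each other and are not separate members. Both isoforms of Gbp9 are counted in the same direction, and both of Hsdl2 in the opposite one. Gbp9, a guanylate-binding protein, is among the shared ones, with Gbp9-202 at 53.1% at PN90 and 23.7% at PN28. In cardiomyocytes it was at 58.7% at PN67 and 27.7% at PN30. Hsdl2-201 is among the opposite ones, at 11.6% at PN67 and 24.7% at PN30.

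The 2-fold limit falls within a continuous range. Tmprss13 was just inside it at 2.29 FPKM at PN90, against 0.642 FPKM at PN28, and Fabp7, a fetal fatty acid carrier of the brain, was just inside at 0.489 FPKM at PN90, against 1.98 FPKM at PN28. Tnfrsf12a, a receptor for the cytokine TWEAK, was just outside at 63.2 FPKM at PN90, against 31.4 FPKM at PN28, and Kcna5, given above, was just outside on the other side. Among the most abundant stable genes were the small nuclear RNA Rn7sk at 44469.8 FPKM at PN90, against 48699.5 FPKM at PN28, the mitochondrial gene mt-Nd4 at 6834 FPKM at PN90, against 6526 FPKM at PN28 and Actc1, Myl3 and Tnni3, given above. The bounds of Rn7sk gave a log2 difference of -1.39 to 1.14 and those of Tnni3 -0.34 to 0.69, both wider than the stable band.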

How the data were processed

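The PN90 and PN28 ventricles compared here are 2 of 13 RNA sequencing libraries, all from wild-type FvB mice. The deposited tables give FPKM per transcript with its confidence bounds, a status and a coverage value, made by the authors with TopHat2 2.0.5 and Cufflinks 2.1.1 on mm9, per the submitters' processing notes. Which gene annotation the authors used is not stated in the labels. Of 94696 transcripts, 87.0% were matched to GENCODE M21 by identifier, and unmatched ones held 7.51% of FPKM at PN90 and 7.29% at PN28. The deposited coverage signal served only to gauge depth, since counts are not given.

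Gene FPKM was the sum over matched transcripts of status OK and at least 200 nucleotides, the same in both libraries. Libraries were scaled by the median of ratios over the 5 ventricles, and cells over the 8 cell libraries. In 16.5% (PN90) and 16.7% (PN28) of transcripts of at least 1 FPKM, the FPKM lay outside its own bounds, which were widened to hold it. Genes with a status of HIDATA or FAIL (35 names) were left out. Differences are on log2(FPKM + 1), which understates change at low FPKM. Cufflinks shares fragments among isoforms and near-identical genes by an estimate, so these are uncertain, and overlapping genes on opposite strands may be too. Calls follow the report's 2-fold rule, and isoforms needed a gene FPKM of at least 5. The calculations used Python 3.11.15, pandas 2.3.3 and NumPy 2.4.6. The call rule was tested on simulated data, with changes of 3-fold or more in genes of at least 5 FPKM. Changes near the 2-fold limit, genes of lower FPKM and the spread between mice were not simulated.

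The 43 gene lists, the comparison and the rules were chosen with earlier results of these data known. Named genes are the 12 largest rises and 12 largest falls, up to 4 called genes per list described or else its 3 most abundant, a set named whatever its values, the 10 most abundant stable genes, 10 isoforms and the genes next to the 2-fold limit. Others were named after their values were seen. Some genes that this rule names are not reported here.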

Additional observations from a re-analysis of the deposited data

Results flagged for a closer look

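Ddit4 and Sln were called lower at PN90 in ventricle and higher at PN67 in isolated cardiomyocytes. Ddit4 had a log2 difference of -1.70 for PN90 over PN28 ventricle and of 1.57 for PN67 over PN30 cardiomyocytes, where it had 50.5 FPKM at PN67, against 16.3 FPKM at PN30. Sln had a log2 difference of -1.45 in ventricle and of 1.17 in cardiomyocytes, where it had 14.7 FPKM at PN67, against 5.99 FPKM at PN30. With 1 library at each age the difference between tissue and cells was not tested. A transcript of Gm11966, of 87 nucleotides and thus outside the gene sums, had a deposited FPKM of 1.37377e+08 at PN90 and 1.63262e+08 at PN28, and 0 in all 8 cell libraries.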

How the results depend on the processing

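The 62 higher and 59 lower calls became 104 and 102 with a pseudocount of 0.1, 35 and 36 when a mean FPKM of 5 was required, 243 and 211 at 1.5-fold and 13 and 13 at 3-fold. The matrix genes called lower became 25 at 1.5-fold and 1 at 3-fold. Stable genes numbered 5897 when a mean FPKM of 5 was required and 26692 with no filter on low values. FPKM as deposited gave 51 higher and 68 lower, no confidence guard 63 and 63, no filter 68 and 60, transcripts under 200 nucleotides kept 67 and 60, and LOWDATA transcripts kept 63 and 60. Lifting the exclusion of HIDATA and FAIL genes left the same 11216 genes and could not change the calls. Transcripts of those statuses stayed out of the sums, so genes such as Myh6 and Ttn were not compared in that setting either. Of the alternatives added after the data were seen, bounds as deposited gave 63 and 62, and whole-locus sums gave 64 and 54 and reversed Lpl, whose log2 difference became 0.10. Of 179 named genes compared, 166 stayed within their bounds under whole-locus sums, 143 under FPKM as deposited and 156 with a pseudocount of 0.1, and 137 of 178 did with mitochondrial genes removed and sums set equal. The 651 isoforms became 105 at 20 percentage points, 419 with a gene FPKM of at least 10, 960 with no guard and, added later, 423 without genes that have an unmatched transcript in their span. The epicardial and mesothelial list and the glial and neuronal list had no gene left when a mean FPKM of 5 was required. No paired analysis was possible because each age has 1 library, and for the same reason no library could be left out. Differences between the ages cannot be told apart from differences between the animals, dissections or library preparations.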

Other observations

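Several further genes called between the ages had a course over the series that the lists do not cover. Inmt, a methyltransferase of small amines, had 0 FPKM at E17, 0 at PN1, 0.0513 at PN10, 1.69 at PN28 and 5.99 at PN90. Tmem144, a membrane protein of little known function, had 6.08 FPKM at E17, 6.35 at PN1, 8.14 at PN10, 17.3 at PN28 and 39.4 at PN90, and Armc2, needed for sperm flagella, had 0.862 FPKM at E17, 1.12 at PN1, 0.805 at PN10, 8.44 at PN28 and 24.7 at PN90 and 21.4 FPKM at PN67, against 9.07 FPKM at PN30 in cardiomyocytes. Aqp8, a water channel, had 2.26 FPKM at PN90, against 0.458 FPKM at PN28. Itga9, an integrin that binds matrix, had 16.0 FPKM at E17, 17.8 at PN1, 62.1 at PN10, 44.3 at PN28 and 19.4 at PN90, and Nrep, a neuronal regeneration protein also found in fibroblasts, had 46.9 FPKM at E17, 89.4 at PN1, 94.8 at PN10, 18.0 at PN28 and 6.76 at PN90.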
